A study of Mus musculus with 12 samples.

Results

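The genes described here are 57 components of the Wnt pathway, measured by RNA sequencing in cultured mouse cells of the intestinal muscle wall and in native muscle. They were chosen by symbol from the 52550 genes of the deposited count table: all Wnt ligands, Frizzled receptors, secreted Frizzled-related proteins (Sfrp), Dickkopf (Dkk) and R-spondin (Rspo) genes, Lgr4 to Lgr6, and Axin2, Nkd1, Nkd2, Rnf43, Znrf3, Notum, Tcf7, Lef1, Sp5, Apcdd1, Wif1, Lrp5 and Lrp6. By role they comprise 19 Wnt ligands, 12 Frizzled receptors and co-receptors, 9 genes of the R-spondin module, 10 secreted inhibitors and 7 intracellular feedback genes and nuclear factors. The rule uses symbols alone, but it was set with earlier results of these data known.

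There were 12 libraries, with 3 biologically independent replicates in each of 4 groups, and every sample was wild type. P plate cells were kept for 28 days on a well plate in P medium, which is DMEM with 10% FBS and antibiotics and which the labels call the proliferation medium. M plate cells were kept for the same time on a well plate in M medium, called the differentiation medium. That medium is serum-free Advanced DMEM/F-12 with N2, B27 without vitamin A, N-acetylcysteine at 1 mM, recombinant mouse Noggin at 100 ng/ml, recombinant human R-spondin1 at 1 µg/ml and the ROCK inhibitor Y27632 at 10 µM. M scaffold cells had this medium too but sat on a scaffold of electrospun gelatin, and strips of native muscle were the positive control. R-spondin1 was never varied alone: serum, supplements, Noggin, R-spondin1 and Y27632 all differ between the P and M media, so their parts in any difference between P plate and M plate cannot be told apart. The strips carry the same day label as the cultures, and their title names them as strips.

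Wnt proteins are secreted lipid-modified ligands that bind Frizzled receptors and the co-receptors Lrp5 and Lrp6, which stops the Axin-containing destruction complex from degrading beta-catenin and lets it act with TCF and LEF factors in the nucleus. R-spondins bind Lgr4, Lgr5 or Lgr6 and draw off the ubiquitin ligases Znrf3 and Rnf43, which otherwise remove Frizzled receptors from the cell surface. Cells answer with feedback inhibitors such as Axin2, Nkd1 and Notum, and the mesenchyme of the gut wall is known as a source of Wnt ligands, R-spondins and their secreted antagonists.

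Levels below are CPM, a gene's counts relative to the total of its library scaled by the TMM method, and gene counts ranged from 21396485 to 116643512 per library, so that 3 counts, the limit that a count of 0 allows, came to 0.0257 to 0.14 CPM before that scaling. Differences are log2 fold changes ± standard error from edgeR's quasi-likelihood test, and a gene was called at a Benjamini-Hochberg adjusted p below 0.05 over the 17700 genes that passed the filter on low counts. Of the 57 Wnt genes 46 passed. The other 11 (Wnt1, Wnt3, Wnt3a, Wnt7a, Wnt8a, Wnt8b, Wnt9b, Rspo4, Dkk1, Dkk4 and Lef1) had no group mean above 0.334 CPM and no library with more than 29 counts, although each had at least 1 count somewhere.

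Single libraries and the mix of cells moved with some of these genes. In P plate replicate 1, 13 of the 46 tested Wnt genes lay below 50% of each of the other P plate libraries: Wnt2, Wnt2b, Wnt5b, Wnt9a, Wnt11, Fzd4, Fzd6, Fzd10, Rspo1, Sfrp2, Sfrp4, Axin2 and Tcf7. Wnt7b and Wif1 lay above 2 times the level of both others there. Such counts were made for the Wnt genes alone, so the share of all genes that stood apart in a library is not known. The summed level of 4 mesothelial markers was 282 CPM in that library and 2920 and 2230 CPM in the other P plate libraries, and that of 5 macrophage markers was 16400 against 3000 and 1870 CPM. In M scaffold replicate 3, 5 Wnt genes were equally far below both other scaffold libraries (Wnt2b, Fzd4, Fzd9, Fzd10 and Sfrp2), beside a sum of 5 blood endothelial markers of 187 CPM against 1380 and 916 CPM. In the same library 5 lay above 2 times the level of both others (Wnt4, Wnt7b, Sfrp5, Wif1 and Sp5). In M scaffold replicate 2, 5 stood apart downward (Wnt2, Wnt4, Sfrp4, Sfrp5 and Wif1) and 2 upward (Wnt10b and Lgr6). All 5 blood endothelial and all 4 lymphatic endothelial markers were called higher in M plate than in P plate, with sums of 1420 to 1800 against 13 to 26.2 CPM and of 2710 to 3650 against 7.37 to 37.1 CPM. The 6 enteric glial markers were all called higher there too (20.6 to 36.8 CPM summed in P plate, 167 to 211 in M plate), as were 5 of 7 neuronal markers (28.1 to 68.9 and 116 to 222 CPM), 3 of 4 of interstitial cells of Cajal (20.7 to 54 and 62.3 to 83.6 CPM), 4 of 5 of fibroblasts and 3 of 5 of pericytes. Of 8 smooth muscle markers 3 were lower, and 0 of 4 mesothelial and 0 of 5 macrophage markers were called by edgeR. Among all genes 14.3% were called higher and 10.6% lower in M plate than in P plate. The 8 smooth muscle markers summed to 34100 to 35500 CPM in strips and to between 2920 and 11000 CPM in the cultures, the 7 neuronal markers to 1010 to 1360 CPM in strips and 28.1 to 536 CPM in the cultures. Among neuronal markers only Chat was at 0 in a whole group, P plate. The part of these cell types in the Wnt results was not tested, and in bulk RNA fewer cells of a type and less RNA per cell cannot be told apart.

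M plate differed from P plate in 20 of the 46 tested Wnt genes, 14 higher and 6 lower. That is 43.5% of them, where 24.9% of all genes tested were called (14.3% higher and 10.6% lower). Their median log2 fold change was 0.32, against 0.00 for all genes. Genes that rose were the ligands Wnt2b, Wnt7b, Wnt10a and Wnt10b, the receptors Fzd4, Fzd6, Fzd9 and Fzd10, the R-spondin receptors Lgr4 and Lgr5, Rspo1, the inhibitors Sfrp2 and Notum, and Nkd1. Those that fell were Fzd1, Fzd2, Fzd7, Lgr6, Dkk2 and Sfrp4. Without P plate replicate 1 the counts were 13 higher and 8 lower, and without M plate replicate 1 they were 6 and 4. Of the 20 calls 10 were kept whichever 1 library was left out.

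M scaffold differed from M plate in 4 of 46 genes, Wnt6, Fzd1, Sfrp4 and Nkd2, all higher on the scaffold. This is 8.7% of the tested Wnt genes, beside 3.18% of all genes tested (1.53% higher, 1.64% lower), with a median log2 fold change of 0.04 against 0.01. In this edgeR fit of all 12 libraries 0 were called lower, where 7 had an unadjusted p below 0.05 in that direction and 10 in the higher one. All genes were not counted at that unadjusted p. DESeq2 and limma-voom each called 1 lower (Rspo3), and edgeR called 1 without the filter on low counts (Wnt9b) and 2 with only the 6 compared libraries (Wnt9a and Rspo1). Same-numbered libraries of these 2 groups deviated together. A fit with the replicate number as a block within the 6 libraries has 2 residual degrees of freedom. In it edgeR called 12 of 43 tested Wnt genes, 8 higher and 4 lower. That is 27.9%, beside 10.5% of all genes in that fit (4.81% higher and 5.69% lower). The 4 genes above kept their calls, Wnt6, Fzd1, Sfrp4 and Nkd2 at adjusted p = 0.0372, 0.0323, 0.0295 and 0.0166. Called with this block but not in the fit of 12 libraries were Fzd2 (log2 fold change 0.43, adjusted p = 0.0407), Dkk2, Dkk3 and Sfrp1, all higher, and Wnt9a, Fzd4, Fzd6 and Rspo1, all lower. With a block on all 12 libraries Wnt6 (adjusted p = 0.0566) and Sfrp4 (adjusted p = 0.0768) were not called. With 1 library left out and no block, Fzd1 was the 1 of the 4 still called without M scaffold replicate 3, and none of them was without M plate replicate 1, 2 or 3. Beside these genes, 3 of 6 glial markers were called higher on the scaffold (292 to 692 CPM summed), as were 1 of 7 neuronal (351 to 536 CPM), 1 of 4 Cajal cell (80.9 to 167 CPM) and 1 of 5 pericyte markers. With the block these counts were 4, 4, 1 and 3, with 2 of 8 smooth muscle and 1 of 5 fibroblast markers higher, and 2 of 4 mesothelial, 1 of 4 lymphatic and 1 of 5 macrophage markers lower. Their part in the Wnt results was not tested. The comparison shares its M plate libraries with the one between media.

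**Figure D1:**
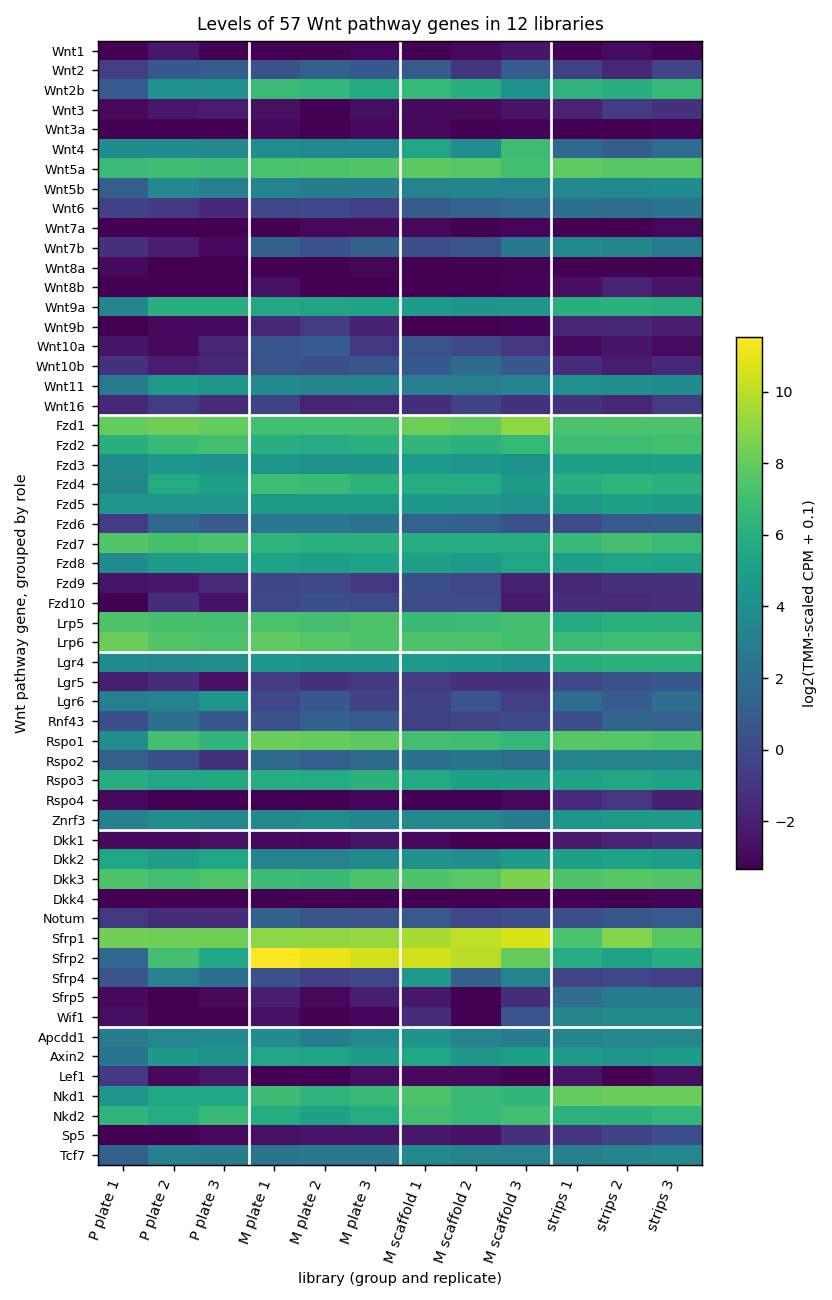
Heat map of log2(CPM + 0.1) for the 57 Wnt pathway genes (vertical axis, in role blocks split by white lines) in the 12 libraries (horizontal axis, by group and replicate). Sfrp2 is brightest in the M plate libraries, Sfrp5 and Wif1 are brighter in every strips library than in any culture library, and P plate replicate 1 is darker than its neighbours at Wnt2b, Rspo1 and Axin2.

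Among the ligands, Wnt2b (GRCm38 chr3:104945272-104961921), a beta-catenin-activating ligand of gut mesenchyme, was the most abundant ligand to rise in M medium. It measured 1.92, 17.8 and 18.4 CPM in P plate, 110, 92.6 and 52.9 CPM in M plate, 99.2, 64.1 and 19.4 CPM in M scaffold and 80.1, 64.2 and 97.0 CPM in strips. All M plate libraries exceeded all P plate libraries and lay around the strips. Between media the log2 difference was 2.75 ± 0.76 (adjusted p = 0.0245), and 2.24 (adjusted p = 0.0176) without P plate replicate 1. The call was lost without M plate replicate 1 (adjusted p = 0.0741) or replicate 2 (adjusted p = 0.0617). P plate was lower than strips by a log2 fold change of -2.67 ± 0.76 (adjusted p = 0.0105), while M plate was 0.08 from strips (adjusted p = 0.93).

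The other ligands that rose in M medium were scarce. Wnt7b measured 0.328, 0.123 and 0.0319 CPM in P plate and 2.26, 1.22 and 2.25 CPM in M plate, a log2 fold change of 3.51 ± 0.83 (adjusted p = 0.0117). Its scaffold libraries stood at 1.08, 1.37 and 6.07 CPM and its strips at 13.0, 10.5 and 6.76 CPM, above every culture library. Wnt10a measured 0.0821, 0.0307 and 0.191 CPM in P plate, 1.35, 1.90 and 0.440 CPM in M plate, 1.32, 0.777 and 0.406 CPM in M scaffold and 0.0274, 0.0834 and 0.0348 CPM in strips. Wnt10a was thus low in serum medium and in the native tissue and higher in both M groups, by 3.57 ± 0.75 (adjusted p = 0.0065) between the media and by 4.76 ± 0.82 (adjusted p = 0.000755) between M plate and strips. Before scaling, a level of 3 counts came to 0.0947, 0.14 and 0.0393 CPM in the strips and 0.0915 CPM in P plate replicate 2. Wnt10a lay near or below that level in each of these libraries, so the sizes of both differences are uncertain. Its close relative Wnt10b measured 0.356, 0.123 and 0.223 CPM in P plate, 1.32, 1.12 and 1.46 CPM in M plate, 1.63, 3.39 and 1.60 CPM in M scaffold and 0.274, 0.125 and 0.220 CPM in strips. The log2 fold change of Wnt10b was 2.45 ± 0.45 between media (adjusted p = 0.00305) and 2.6 ± 0.44 between M plate and strips (adjusted p = 0.000707). These 3 calls between media were kept when any 1 library was left out, with Wnt7b at 4.57 (adjusted p = 0.00945) without P plate replicate 1 and Wnt10a at 4.35 (adjusted p = 0.0118) without P plate replicate 3.

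Wnt6 was the ligand called between scaffold and plate. It measured 0.657, 0.461 and 0.223 CPM in P plate, 0.802, 0.914 and 0.676 CPM in M plate, 1.97, 2.52 and 3.55 CPM in M scaffold and 4.22, 4.09 and 5.21 CPM in strips. The scaffold libraries lay above all plate libraries and below all strips. From M plate to M scaffold it rose by a log2 fold change of 1.76 ± 0.35 (adjusted p = 0.0311). The call was lost without M plate replicate 1, 2 or 3 or M scaffold replicate 2 or 3, with adjusted p from 0.0519 to 0.131. M plate was lower than strips by a log2 fold change of -2.50 ± 0.35 (adjusted p = 0.000235), and for M scaffold against strips the value was -0.74 (adjusted p = 0.0807), which passed without M scaffold replicate 3 (-1.0, adjusted p = 0.0436).

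Wnt4 was uneven on the scaffold, at 42.7, 15.4 and 119 CPM, against 14.9, 14.0 and 13.9 CPM in P plate, 15.2, 12.6 and 13.0 CPM in M plate and 3.26, 1.96 and 3.66 CPM in strips. All cultures exceeded all strips, with log2 fold changes of 2.25 ± 0.58 for P plate (adjusted p = 0.00598), 2.18 ± 0.57 for M plate (adjusted p = 0.00828) and 4.30 ± 0.62 for M scaffold (adjusted p = 0.000343), the last 3.28 without M scaffold replicate 3 (adjusted p = 0.000267). With limma-voom the P plate and M plate differences from strips were not called. Scaffold against plate was 2.12 ± 0.56 and missed the threshold (adjusted p = 0.0668), but passed without M scaffold replicate 2 (2.59, adjusted p = 0.018). Wnt5a, a ligand known mainly for signalling that does not use beta-catenin, measured 111 to 125 CPM in P plate, 151 to 178 CPM in M plate, 132 to 222 CPM in M scaffold and 202 to 238 CPM in strips. Between media its log2 fold change was 0.49 ± 0.17 (adjusted p = 0.0618), and P plate was lower than strips by -0.88 ± 0.17 (adjusted p = 0.00124).

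Wnt9a and Wnt11 depended on P plate replicate 1. Wnt9a measured 10.6, 64.4 and 64.3 CPM in P plate, 50.5, 40.4 and 39.5 CPM in M plate, 28.4, 20.4 and 23.0 CPM in M scaffold and 68.8, 71.0 and 61.1 CPM in strips. From M plate to M scaffold Wnt9a was at -0.86 (adjusted p = 0.345), and with the replicate block it was called lower, at -0.85 ± 0.09 (adjusted p = 0.0208). Wnt11 measured 6.84, 28.3 and 23.2 CPM in P plate and 10.7 to 12.5 CPM in M plate. With all libraries neither was called between media (-0.09 ± 0.49, adjusted p = 0.91, and -0.76 ± 0.38, adjusted p = 0.171). Without P plate replicate 1 both were lower in M plate, Wnt9a by -0.56 (adjusted p = 0.0204) and Wnt11 by -1.17 (adjusted p = 0.000367), and Wnt6 was then higher (1.2, adjusted p = 0.0416). In all, 4 of 12 tested ligands rose between media and none fell (median log2 fold change 0.42). That is 33.3% higher, where 14.3% of all genes were higher and 10.6% lower.

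Per kilobase of exon, a scale on which genes can be compared, Wnt5a led the ligands in every group, with 15, 21.1, 23.6 and 27.6 mean CPM per kb in P plate, M plate, M scaffold and strips. Next came Wnt9a in P plate (13.9) and in strips (20.1) and Wnt2b in M plate (20.3) and in M scaffold (14.5 CPM per kb). In M plate Wnt5a and Wnt2b did not differ beyond their spread, at 21.1 ± 1.77 and 20.3 ± 6.98 CPM per kb (SD, n = 3), and their order turned when the longest transcript was taken as the length. All ligands together summed to 44.1, 66.2, 68.7 and 81.5 CPM per kb in the 4 groups.

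**Figure D2:**
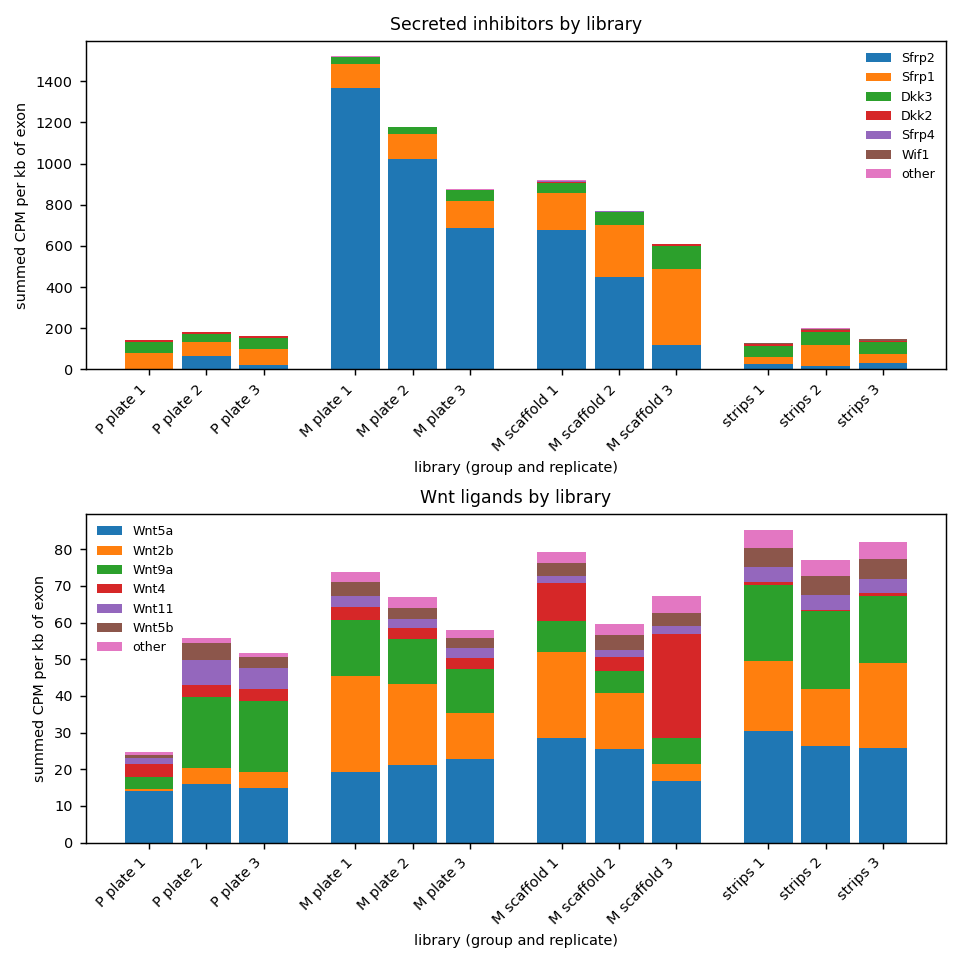
Stacked bars of CPM per kb of exon for the secreted inhibitors (top) and Wnt ligands (bottom), 1 bar per library along the horizontal axis, with each colour 1 gene. Sfrp2 makes up most of the bar in every M plate library, and the ligand bar of P plate replicate 1 is the shortest.

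The Frizzled receptors moved in both directions between the media. Fzd1 and Fzd7, close relatives, were the clearest to fall. Fzd7 measured 190, 145 and 161 CPM in P plate, 81.1, 70.5 and 74.9 CPM in M plate, 60.4, 59.4 and 60.0 CPM in M scaffold and 103, 143 and 110 CPM in strips. Its P plate libraries were the highest and its M libraries the lowest, with no overlap. Between media it fell, with a log2 fold change of -1.13 ± 0.14 (adjusted p = 0.000269), and against strips it was 0.48 ± 0.14 for P plate (adjusted p = 0.0103), -0.65 ± 0.14 for M plate (adjusted p = 0.00228) and -0.99 ± 0.14 for M scaffold (adjusted p = 0.000273). The P plate value missed the threshold without P plate replicate 1 (adjusted p = 0.0545) or strips replicate 1 (adjusted p = 0.0523).

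Fzd1 (GRCm38 chr5:4753839-4758035) fell with the medium and was higher on the scaffold. It measured 260, 310 and 260 CPM in P plate, 134, 137 and 143 CPM in M plate, 299, 252 and 519 CPM in M scaffold and 154, 164 and 159 CPM in strips. M plate was the lowest group in every library, and scaffold and P plate levels overlapped. Its log2 fold change was -1.01 ± 0.22 between media (adjusted p = 0.00843) and 1.37 ± 0.22 from M plate to M scaffold (adjusted p = 0.0178). The latter was 1.00 without M scaffold replicate 3 (adjusted p = 0.0133) and missed the threshold without M plate replicate 1, 2 or 3 (adjusted p from 0.0617 to 0.0926). Fzd1 led the receptors per kilobase in all groups and made up 51.7% of their summed CPM per kb on the scaffold and 26% in M plate. Fzd2, the third of this subfamily, measured 68.3, 102 and 134 CPM in P plate and 64.0, 55.8 and 71.7 CPM in M plate, which overlap. Its log2 fold change of -0.67 ± 0.22 (adjusted p = 0.0452) was lost without any 1 M plate replicate or replicate 2 or 3 of P plate (adjusted p from 0.0657 to 0.169).

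Fzd4, which binds both Wnts and norrin, rose in M medium. It measured 11.2, 55.1 and 35 CPM in P plate, 120, 106 and 78.4 CPM in M plate, 57.3, 57.6 and 28.6 CPM in M scaffold and 65.1, 86.1 and 70.4 CPM in strips. All M plate libraries exceeded all P plate libraries. M plate was higher by 1.59 ± 0.47 on the log2 scale (adjusted p = 0.033), and without P plate replicate 1 it was 1.17 (adjusted p = 0.0244). With M plate replicate 1 or 2 or replicate 3 of P plate left out, the adjusted p was 0.0824 to 0.1. From M plate to M scaffold its log2 fold change was -1.09 ± 0.47 (adjusted p = 0.211), and with the replicate block -1.13 ± 0.13, called lower (adjusted p = 0.0221).

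Further receptors of low level were called higher in M plate. Fzd6 measured 0.493, 2.83 and 1.82 CPM in P plate and 5.67, 5.58 and 4.75 CPM in M plate (1.64 ± 0.53, adjusted p = 0.0454). Fzd9 measured 0.0821, 0.0922 and 0.255 CPM against 0.745, 0.812 and 0.440 CPM (2.20 ± 0.71, adjusted p = 0.0454), and Fzd10 measured 0, 0.277 and 0.0638 CPM against 0.831, 1.12 and 0.959 CPM (3.09 ± 0.95, adjusted p = 0.0375). The groups did not overlap for these receptors, but each call was lost when some single libraries were left out. For Fzd6 these were P plate replicate 3 and M plate replicates 1, 2 and 3 (adjusted p from 0.0798 to 0.112). For Fzd9 they were P plate replicates 1 and 2 and M plate replicates 1, 2 and 3 (adjusted p from 0.056 to 0.117), and for Fzd10 P plate replicates 1 and 3 and M plate replicates 1, 2 and 3 (adjusted p from 0.0657 to 0.115). Without P plate replicate 3 Fzd9 stood at 2.89 (adjusted p = 0.0465), and Fzd10 at 4.90 without P plate replicate 2 (adjusted p = 0.0157) and 2.48 without P plate replicate 1. On the scaffold against M plate Fzd6 was at -1.41 (adjusted p = 0.158), and with the replicate block it was lower, at -1.46 ± 0.25 (adjusted p = 0.0342).

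The co-receptors did not follow the medium. Lrp5 measured 142 to 175 CPM in P plate, 142 to 168 CPM in M plate, 106 to 137 CPM in M scaffold and 53.0 to 75.0 CPM in strips, and its log2 fold change between media was 0.01 (95% interval -0.35 to 0.37, adjusted p = 0.97). For Lrp6, at 162 to 279 CPM in P plate and 176 to 240 CPM in M plate, the value was -0.02 (interval -0.47 to 0.42, adjusted p = 0.953). Lrp5 was higher than strips in all 3 cultures, by log2 fold changes of 1.22, 1.23 and 0.83 in P plate, M plate and M scaffold (adjusted p = 8.3e-05, 0.000133 and 0.00153). Lrp6 was higher than strips on plates, by 0.83 and 0.80 (adjusted p = 0.0038 and 0.00536). Of the 12 receptors and co-receptors 4 rose and 3 fell between the media (median log2 fold change 0.23). These are 33.3% and 25%, beside 14.3% and 10.6% of all genes.

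**Figure D3:**
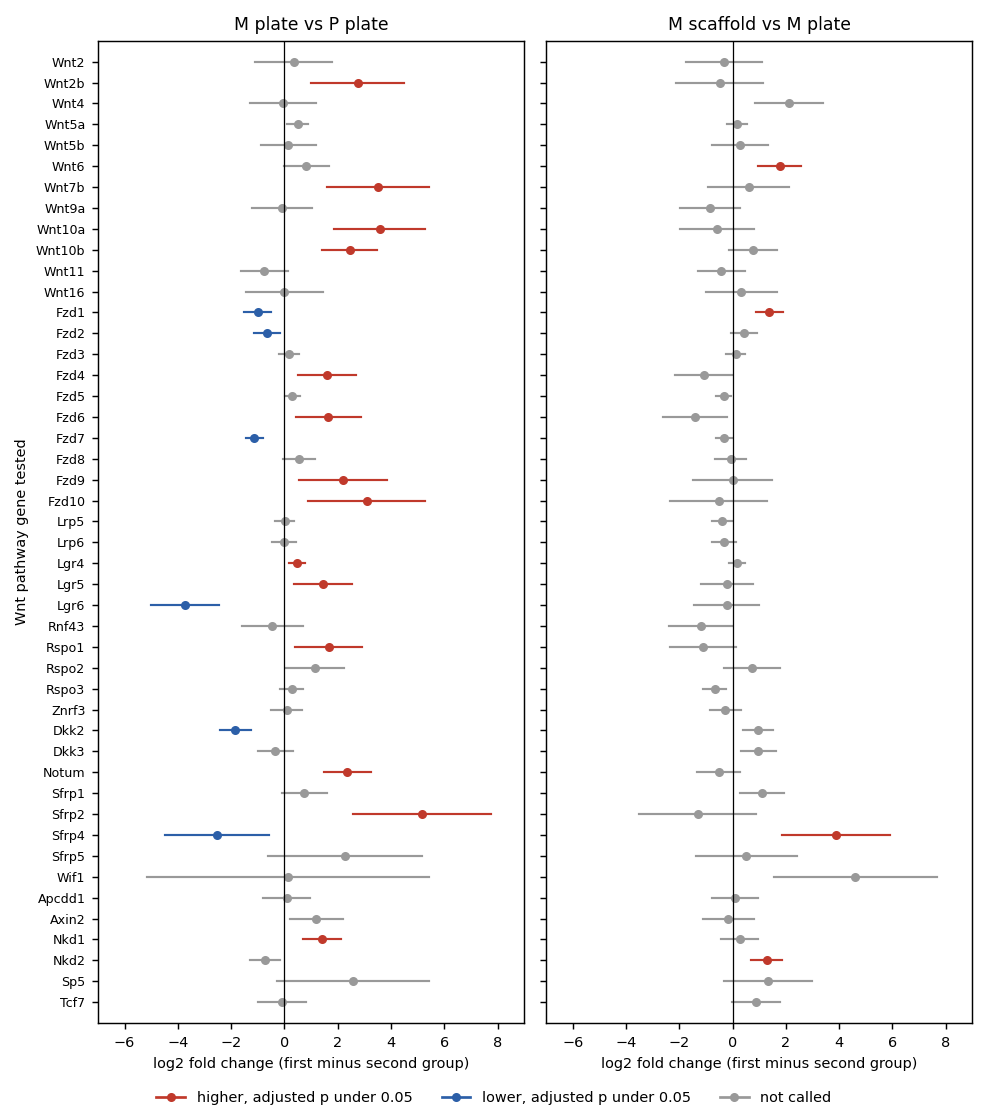
Log2 fold changes (points) with 95% intervals (lines) of the 46 tested Wnt genes (vertical axis) for M plate against P plate (left) and M scaffold against M plate (right), coloured by call at an adjusted p below 0.05. On the left 14 genes are called higher and 6 lower, with Sfrp2 farthest to the right among those called and Lgr6 farthest to the left, and on the right 4 are called, all higher.

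Of the receptors in the R-spondin module, Lgr6 fell between media while Lgr4 and Lgr5 were called higher. Lgr6 (GRCm38 chr1:134983301-135105276) fell by the largest amount of any Wnt gene called between the media. It measured 8.38, 9.93 and 21.8 CPM in P plate, 0.831, 1.57 and 0.645 CPM in M plate, 0.676, 1.40 and 0.568 CPM in M scaffold and 3.67, 1.88 and 4.45 CPM in strips. P plate lay above every other library, both M groups lay below the strips, and no library overlapped between these. Its log2 fold change between media was -3.72 ± 0.56 (adjusted p = 0.000969), kept without any 1 library. Against strips it was 1.99 ± 0.51 for P plate (adjusted p = 0.00611), -1.73 ± 0.52 for M plate (adjusted p = 0.0167) and -1.96 ± 0.53 for M scaffold (adjusted p = 0.0107). The M plate value missed the threshold without M plate replicate 1 or 3 or strips replicate 3 (adjusted p = 0.0569, 0.067 and 0.0586).

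Lgr4, the receptor with the widest known expression, was highest in strips. It measured 14.9, 13.6 and 17.0 CPM in P plate, 22.3, 20.2 and 20.3 CPM in M plate, 27.1, 23.9 and 19.6 CPM in M scaffold and 62.9, 73.3 and 71.9 CPM in strips. M plate lay above P plate by 0.47 ± 0.14 on the log2 scale (adjusted p = 0.0296), a call lost without any 1 M plate replicate or replicate 1 or 2 of P plate (adjusted p from 0.0503 to 0.104). All cultures were far lower than strips, with log2 fold changes of -2.20 ± 0.14, -1.73 ± 0.14 and -1.56 ± 0.14 in P plate, M plate and M scaffold (adjusted p = 1.11e-06, 1.13e-05 and 2.84e-05). Lgr5, known as a stem cell marker of the gut epithelium, was near the detection limit in culture. It measured 0.137, 0.277 and 0.0638 CPM in P plate, 0.516, 0.330 and 0.472 CPM in M plate, 0.492, 0.311 and 0.343 CPM in M scaffold and 0.794, 1.17 and 1.57 CPM in strips. Its log2 fold change between media was 1.45 ± 0.48 (adjusted p = 0.048), lost without any 1 M plate replicate or replicate 1 or 3 of P plate (adjusted p from 0.0691 to 0.141), and 2.07 without P plate replicate 2 (adjusted p = 0.0156). Beside it, 7 epithelial markers summed to 2.46 to 3.64 CPM in P plate, 3.59 to 5.13 CPM in M plate, 3.26 to 4.29 CPM in M scaffold and 32.8, 156 and 30.0 CPM in strips, with Cdx2 at 0 in all cultures and Olfm4 at 0 in P plate.

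The cells' own Rspo1 (GRCm38 chr4:124986430-125009099), which is separate from the recombinant human protein in the medium, was higher in M plate. It measured 15.9, 139 and 86.9 CPM in P plate, 288, 256 and 220 CPM in M plate, 134, 124 and 91.4 CPM in M scaffold and 201, 193 and 176 CPM in strips. M plate was the highest group in every library. On the log2 scale the difference between media was 1.66 ± 0.55 (adjusted p = 0.0496). Without P plate replicate 1 it was smaller and further from the threshold (1.17, adjusted p = 0.00442), without P plate replicate 2 it was larger (2.30, adjusted p = 0.0157), and without any 1 M plate replicate or replicate 3 of P plate it was not called (adjusted p from 0.0806 to 0.126). From M plate to M scaffold the value was -1.13 ± 0.54 (adjusted p = 0.262), although the groups did not overlap, and with the replicate block it was called, at -1.13 ± 0.09 (adjusted p = 0.0167). Per kilobase Rspo1 led the module in all groups and made up 63.4%, 82.9%, 75.4% and 75.9% of its summed CPM per kb in P plate, M plate, M scaffold and strips.

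Rspo2 and Rspo3 encode the other 2 R-spondins that were tested. Rspo2 measured 2.19, 1.14 and 0.351 CPM in P plate, 3.04, 2.03 and 3.18 CPM in M plate, 4.39, 5.44 and 3.69 CPM in M scaffold and 10.1, 9.84 and 10.4 CPM in strips, above every culture library. Its difference between media was 1.16 ± 0.47 (adjusted p = 0.1) and passed without P plate replicate 1 (1.88, adjusted p = 0.00853). It was lower than strips by -3.03 ± 0.49 in P plate (adjusted p = 0.000366; -3.79 without P plate replicate 1) and -1.88 ± 0.46 in M plate (adjusted p = 0.00598), and by -1.17 in M scaffold, which missed the threshold (adjusted p = 0.0509). Rspo3 measured 61.1, 47.9 and 51.0 CPM in P plate, 61.1, 57.1 and 75.5 CPM in M plate, 52.9, 34.1 and 33.5 CPM in M scaffold and 38.4, 45.6 and 37.1 CPM in strips. All scaffold libraries lay below all M plate libraries, by -0.68 ± 0.19 (adjusted p = 0.0756), which passed without M scaffold replicate 1 (-0.92, adjusted p = 0.0311). Rspo4 was not tested, with at most 0.417 CPM in any library. It held 32 counts in strips against 1, 1 and 3 in P plate, M plate and M scaffold. Without the filter on low counts edgeR called it in each comparison with strips.

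The ligases that R-spondin draws off were not called between the media. Znrf3 measured 9.11, 16.1 and 12.8 CPM in P plate, 12.7, 16.2 and 11.2 CPM in M plate, 13.0, 12.8 and 7.65 CPM in M scaffold and 22.6, 27.6 and 25.8 CPM in strips. Its log2 fold change was 0.08 (95% interval -0.50 to 0.66, adjusted p = 0.85), and the groups overlapped. Against strips it was lower in all 3 cultures, by -1.0, -0.92 and -1.19 (adjusted p = 0.00578, 0.0105 and 0.00317). Rnf43 measured 1.15, 4.37 and 1.63 CPM in P plate, 1.17, 2.21 and 1.81 CPM in M plate, 0.614, 0.745 and 0.875 CPM in M scaffold and 1.10, 2.67 and 2.44 CPM in strips. Its difference was -0.46 ± 0.50 between media (interval -1.60 to 0.69, adjusted p = 0.541) and -1.20 ± 0.51 from M plate to M scaffold (adjusted p = 0.211). M scaffold was lower than strips by -1.45 (adjusted p = 0.036), a call lost without any 1 M scaffold replicate or strips replicate 2 or 3 (adjusted p from 0.0631 to 0.0986). Of the 8 tested genes of the module 3 rose and 1 fell between media (median log2 fold change 0.38). These are 37.5% and 12.5%, beside 14.3% and 10.6% of all genes.

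**Figure D4:**
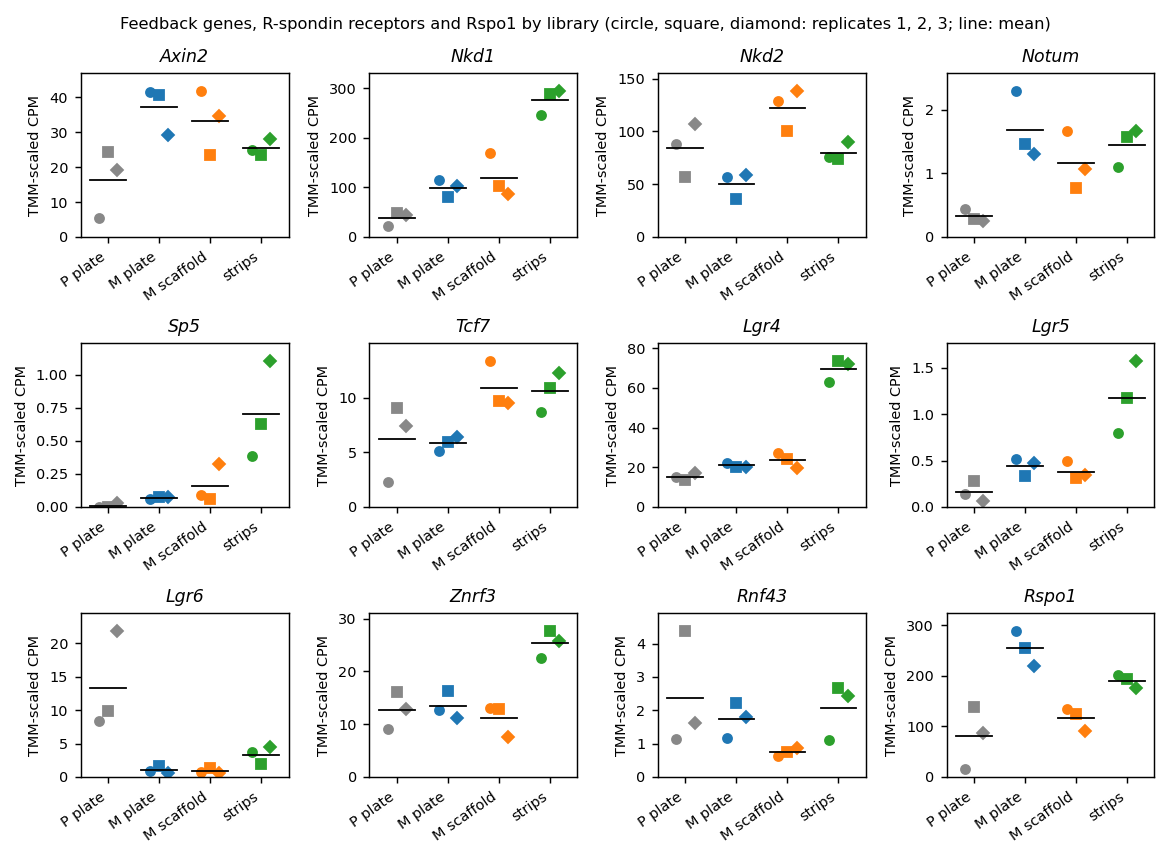
Level in CPM (vertical axis, from 0) of 12 genes in the 4 groups (horizontal axis), with circles, squares and diamonds for replicates 1, 2 and 3 and a line at the mean. Nkd1 and Lgr4 are highest in strips, Lgr6 is highest in P plate, Notum is low in P plate alone, and Znrf3 overlaps between the media.

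The largest rise called between media was in a secreted inhibitor. Sfrp2 (GRCm38 chr3:83766321-83774316), which binds Wnt proteins outside the cell, measured 3.23, 137 and 44.4 CPM in P plate, 2940, 2200 and 1480 CPM in M plate, 1460, 962 and 255 CPM in M scaffold and 57.9, 38.7 and 65.0 CPM in strips. Every library in M medium exceeded every P plate and strips library. Between media the log2 fold change was 5.17 ± 1.12, a 35.9-fold higher level (adjusted p = 0.0079), 4.61 without P plate replicate 1 (adjusted p = 0.00253) and 6.53 without P plate replicate 2 (adjusted p = 0.00497). The call was kept without any 1 library. Against strips it was 5.36 ± 1.13 for M plate (adjusted p = 0.00251), 4.05 ± 1.06 for M scaffold (adjusted p = 0.00905) and 0.19 for P plate, which was not called. Scaffold libraries lay below M plate libraries, by -1.31 ± 0.95 (adjusted p = 0.468). Its exons share 16.1% of their bases with an antisense gene, and the library kit does not mark strand, so reads of the pair cannot be told apart there. Beside Sfrp2, the 5 fibroblast markers summed to 2670 to 6220 CPM in P plate, 7140 to 8250 CPM in M plate, 6640 to 10500 CPM in M scaffold and 1620 to 2010 CPM in strips, with none at 0 in a whole group. Their part in the Sfrp2 level was not tested.

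Per kilobase, the 10 inhibitors summed to 163 CPM per kb in P plate, 1190 in M plate, 766 in M scaffold and 159 in strips. Sfrp2 made up 86% of that sum in M plate and 54.1% in M scaffold, while Sfrp1 led in P plate with 45.4% and in strips with 38.1%. Sfrp1, of the same family, measured 335, 305 and 332 CPM in P plate, 511, 538 and 580 CPM in M plate, 774, 1110 and 1610 CPM in M scaffold and 153, 440 and 202 CPM in strips. The P plate, M plate and M scaffold levels did not overlap, but neither step was called (0.75 ± 0.36, adjusted p = 0.158, and 1.10 ± 0.36, adjusted p = 0.118). The second step was called with the replicate block (1.05 ± 0.20, adjusted p = 0.0413). M scaffold was higher than strips by 2.14 ± 0.37 (adjusted p = 0.00101). M plate was higher by 1.04 ± 0.36 (adjusted p = 0.0322), a call lost without M plate replicate 1, 2 or 3 or strips replicate 1 or 3 (adjusted p from 0.0597 to 0.121).

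Sfrp4 moved against Sfrp2. It measured 1.40, 9.62 and 4.18 CPM in P plate, 1.17, 0.634 and 0.802 CPM in M plate, 26.2, 2.27 and 10.2 CPM in M scaffold and 0.739, 0.834 and 0.580 CPM in strips. M plate lay below P plate and M scaffold in every library. The log2 fold change was -2.54 ± 0.84 between media (adjusted p = 0.0494), lost without any 1 M plate replicate or replicate 2 or 3 of P plate (adjusted p from 0.0812 to 0.159, with -1.69 without P plate replicate 2). From M plate to M scaffold it was 3.89 ± 0.88 (adjusted p = 0.0455), lost without any 1 M plate replicate or M scaffold replicate 1 or 3 (adjusted p from 0.0795 to 0.184, with 2.87 without M scaffold replicate 1). M scaffold was higher than strips by 4.18 ± 0.90 (adjusted p = 0.00313), or 3.16 without M scaffold replicate 1 (adjusted p = 0.00955). P plate was higher by 2.84 ± 0.86 (adjusted p = 0.0145), lost without P plate replicate 2 (1.97, adjusted p = 0.0635) or strips replicate 3 (adjusted p = 0.0549).

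Dkk2, a ligand of Lrp5 and Lrp6, fell in M medium. It measured 41.9, 30.2 and 44.8 CPM in P plate, 10.3, 9.36 and 12.9 CPM in M plate, 18.2, 15.2 and 29.5 CPM in M scaffold and 34.7, 38.6 and 31.1 CPM in strips. M plate was the lowest group in every library, M scaffold lay between M plate and strips, and P plate overlapped with strips. The log2 fold change was -1.84 ± 0.25 between media (adjusted p = 0.00056), kept without any 1 library, and 0.95 ± 0.25 from M plate to M scaffold (adjusted p = 0.0629), which passed without M scaffold replicate 2 (1.16, adjusted p = 0.044) and with the replicate block (0.92 ± 0.14, adjusted p = 0.0285). M plate was lower than strips by -1.68 ± 0.25 (adjusted p = 0.00032). Dkk3, a divergent member of the family, measured 105 to 182 CPM on plates, 172 to 379 CPM on the scaffold and 169 to 203 CPM in strips. With all 12 libraries it was called in no comparison, at 0.97 from M plate to M scaffold (adjusted p = 0.0848), and with the replicate block it was higher on the scaffold (0.93 ± 0.14, adjusted p = 0.0299).

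Notum (GRCm38 chr11:120653788-120661175), an enzyme that removes the lipid from Wnt proteins, measured 0.438, 0.277 and 0.255 CPM in P plate, 2.29, 1.47 and 1.31 CPM in M plate, 1.66, 0.777 and 1.07 CPM in M scaffold and 1.10, 1.58 and 1.66 CPM in strips. P plate lay below every other library. P plate was lower than strips by -2.15 ± 0.38 (adjusted p = 0.000701), and M plate differed from strips by 0.22, not called. The rise between media, 5.14-fold (adjusted p = 0.00162), was kept without any 1 library. Notum shares 38.1% of its exon bases with antisense genes, so part of its reads may belong to either strand.

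Sfrp5 and Wif1, both Wnt-binding inhibitors, were detected mainly in strips. Wif1 measured 10.9, 12.5 and 13.8 CPM in strips and 0.277, 0 and 1.35 CPM in M scaffold. P plate held 2 counts in all 3 libraries together and M plate 3, against 1889 in strips. Per gene count, strips were 783-fold higher than P plate (95% interval 216 to 6470) and 690-fold higher than M plate (236 to 3350), where the intervals cover counting error only. Sfrp5 measured 3.78, 6.92 and 6.80 CPM in strips and at most 0.280 CPM in any culture library. With edgeR the adjusted p against P plate, M plate and M scaffold was 0.000224, 0.000296 and 0.00315 for Wif1 and 6.5e-05, 0.000215 and 0.000351 for Sfrp5. Of the 8 tested inhibitors 2 rose and 2 fell between media (median log2 fold change 0.45). Each is 25%, beside 14.3% of all genes that rose and 10.6% that fell.

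Of the 6 tested intracellular feedback genes and nuclear factors 1, Nkd1, was called between media (median log2 fold change 0.64). That is 16.7%, below the 24.9% of all genes called. Nkd1, which binds Dishevelled and dampens Wnt signalling, measured 22.1, 48.4 and 43.7 CPM in P plate, 116, 81.3 and 102 CPM in M plate, 170, 102 and 87.6 CPM in M scaffold and 247, 288 and 294 CPM in strips. P plate was lowest, both M groups were in the middle and overlapped, and strips were highest. The log2 fold change between media was 1.39 ± 0.31 (adjusted p = 0.00877), kept without any 1 library. Against strips it was -2.86 ± 0.32, -1.47 ± 0.31 and -1.20 ± 0.31 for P plate, M plate and M scaffold (adjusted p = 3.48e-05, 0.00246 and 0.00772).

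Axin2, a part of the destruction complex and the most used transcriptional readout of beta-catenin, measured 5.45, 24.3 and 19.3 CPM in P plate, 41.6, 40.7 and 29.3 CPM in M plate, 41.7, 23.5 and 34.7 CPM in M scaffold and 24.9, 23.4 and 28.2 CPM in strips. All M plate libraries lay above all P plate and strips libraries. The difference between media was 1.19 ± 0.43 on the log2 scale (95% interval 0.20 to 2.18) and missed the threshold (adjusted p = 0.0677). It passed without P plate replicate 1, at a smaller size (0.77, adjusted p = 0.0377), and without P plate replicate 2 (1.58, adjusted p = 0.0322). From M plate to M scaffold the value was -0.16 (interval -1.13 to 0.82, adjusted p = 0.869). In the edgeR fit of all 12 libraries Axin2 was called in none of the 5 comparisons. DESeq2 (1.2, adjusted p = 0.0236) and limma-voom (1.45, adjusted p = 0.0329) called it higher in M plate than in P plate, where the adjusted p over all alternatives ran from 0.0236 to 0.212. With only the 6 compared libraries edgeR called it higher in M plate than in strips (0.55, adjusted p = 0.0108), against 0.54 (adjusted p = 0.299) with all 12, and its adjusted p over all alternatives ran from 0.0108 to 0.481.

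Nkd2, the relative of Nkd1, had another order of groups. It measured 88.6, 56.7 and 107 CPM in P plate, 57.3, 35.6 and 58.4 CPM in M plate, 129, 100 and 138 CPM in M scaffold and 76.0, 74.1 and 89.7 CPM in strips. Scaffold libraries lay above M plate and strips libraries. Scaffold exceeded plate by 1.28 ± 0.25 on the log2 scale (adjusted p = 0.0305), lost without M plate replicate 1, 2 or 3 or M scaffold replicate 1 or 3 (adjusted p from 0.061 to 0.132). Between media it was -0.73 ± 0.25 (adjusted p = 0.0526), and without P plate replicate 2 it passed (-0.96, adjusted p = 0.012).

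Among the nuclear factors, Tcf7 measured 2.30, 9.01 and 7.4 CPM in P plate, 5.13, 5.96 and 6.43 CPM in M plate, 13.3, 9.69 and 9.49 CPM in M scaffold and 8.68, 10.9 and 12.2 CPM in strips. With all 12 libraries it was called nowhere, at -0.09 between media (interval -0.99 to 0.81, adjusted p = 0.891) and 0.89 ± 0.39 from M plate to M scaffold (adjusted p = 0.223). Its relative Lef1 did not pass the filter, with at most 0.465 CPM, in P plate replicate 1. Apcdd1, a membrane-bound Wnt inhibitor, measured 7.38 to 20.1 CPM over all libraries and was called nowhere in that fit. Sp5, a transcription factor gene that beta-catenin is known to switch on, held 1 count in P plate in all and 0.0573, 0.0761 and 0.0786 CPM in M plate, 0.0922, 0.0621 and 0.325 CPM in M scaffold and 0.383, 0.625 and 1.10 CPM in strips. Every strips library lay above every culture library. Strips were 103-fold higher than P plate per gene count (95% interval 18.1 to 4090, counting error only), and with edgeR M plate was lower than strips by -3.28 ± 0.68 (adjusted p = 0.00232) and M scaffold by -1.95 ± 0.59 (adjusted p = 0.0189), the latter -3.17 without M scaffold replicate 3 (adjusted p = 0.00432) and lost without M scaffold replicate 1 or 2 or strips replicate 3 (adjusted p from 0.0559 to 0.103). Between media Sp5 was not called (adjusted p = 0.159).

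The promoters of 3 of these genes are printed because beta-catenin acts through TCF and LEF factors: Sp5 and Axin2 are known targets of the pathway, and Fzd7 fell between the media. Each is the 250 bases before the gene's start in RefSeq (GRCm38.p6), 5′ to 3′ on the plus strand, at chr2:70474673-70474922 for Sp5, chr1:59481897-59482146 for Fzd7 and chr11:108920099-108920348 for Axin2. Capitals mark matches on either strand to the 7-base TCF/LEF core, which is CTTTG with adenine or thymine at each of the next 2 positions.
Sp5: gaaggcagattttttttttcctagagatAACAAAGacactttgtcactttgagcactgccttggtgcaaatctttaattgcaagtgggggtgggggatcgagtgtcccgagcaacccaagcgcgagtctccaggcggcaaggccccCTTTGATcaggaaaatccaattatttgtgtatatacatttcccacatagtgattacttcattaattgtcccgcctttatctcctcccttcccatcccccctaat
Fzd7: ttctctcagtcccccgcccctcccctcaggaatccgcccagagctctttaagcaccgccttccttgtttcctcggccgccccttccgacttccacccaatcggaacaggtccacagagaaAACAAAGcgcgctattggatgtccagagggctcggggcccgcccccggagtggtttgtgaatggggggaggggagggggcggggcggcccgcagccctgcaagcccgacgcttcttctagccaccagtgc
Axin2: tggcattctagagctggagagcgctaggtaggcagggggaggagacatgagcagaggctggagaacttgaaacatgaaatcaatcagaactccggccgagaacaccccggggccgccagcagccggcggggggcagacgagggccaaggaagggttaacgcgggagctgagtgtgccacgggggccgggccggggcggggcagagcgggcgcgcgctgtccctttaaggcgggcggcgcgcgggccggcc

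Sp5 had 2 matches, ending 216 and 98 bases before the start, Fzd7 had 1, ending 124 bases before it, and the Axin2 window had none. RefSeq and GENCODE place the start of Fzd7 at different bases. Of all 32851 promoter windows of this length 14.8% held at least 1 match and 1.43% held 2 or more. For the Wnt genes, 37 of 57 had a window, and 6 of their 45 windows, 13.3%, held a match (Fzd7, Wnt11, Wnt5b, Lef1, Sp5 and Dkk1). Of the 6 genes that fell between the media Fzd7 held a match, the windows of Fzd1, Lgr6 and Dkk2 held none, and Fzd2 and Sfrp4 had no window. Sp5 was lower in cultures than in strips. Wnt11 and Wnt5b were called in no comparison by edgeR on all 12 libraries, and Lef1 and Dkk1 were near 0 throughout. A match describes only these letters in this window.

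Other pathway genes, from a list of 73 that held receptors, destruction complex parts, nuclear effectors, antagonists, targets and polarity genes, were compared in the same fit. Of 69 tested, 16 were higher and 3 lower in M plate than in P plate (median log2 fold change 0.12). That is 23.2% and 4.35%, beside 14.3% and 10.6% of all genes. In M scaffold 2 were higher and 0 lower than in M plate, 2.9% beside 3.18% of all genes. By edgeR 15 had an unadjusted p below 0.05 in the higher direction and 3 in the lower. With the replicate block 12 of 67 were higher and 5 lower on the scaffold, 25.4% beside 10.5% of all genes in that fit. Between media 5 of 12 of the receptors rose (41.7%) and 0 fell, among them the norrin co-receptor Tspan12 (1.91 to 5.53 CPM in P plate, 17.8 to 22.1 CPM in M plate, log2 fold change 2.73 ± 0.52, adjusted p = 0.00383), the glypican Gpc3 (2.48 ± 0.76, adjusted p = 0.0375) and Gpc6 (1.60 ± 0.27, adjusted p = 0.00187). Of the extracellular antagonists and norrin 3 of 6 rose (50%): Ndp, which encodes norrin, a ligand of Fzd4 (at most 0.128 CPM in P plate and 0.685 to 1.03 CPM in M plate, 3.83 ± 0.59, adjusted p = 0.00114), Sostdc1 (3.19 ± 0.63, adjusted p = 0.00465) and Frzb (1.24 ± 0.36, adjusted p = 0.0292). Fzd4, Tspan12 and Ndp, which act together in retinal vessels, were thus all higher in M plate. The Fzd4 call was lost when some single libraries were left out. The co-receptor Lrp5 was not called between the media (log2 fold change 0.01, adjusted p = 0.97). The endothelial markers given above were also higher in M plate, and their part was not tested.

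Of 16 destruction complex and Dishevelled genes 0 rose and 2 fell between media, 12.5% beside the 10.6% of all genes that fell. These were the scaffold protein Axin1 (log2 fold change -0.24 ± 0.08, adjusted p = 0.0395) and the kinase Csnk1e (-0.41 ± 0.10, adjusted p = 0.0146), and the median of the 16 was -0.14. Ctnnb1, which encodes beta-catenin, measured 807 to 866 CPM in P plate and 895 to 938 CPM in M plate (0.15, 95% interval -0.10 to 0.39, adjusted p = 0.341). Of the other target genes 3 of 13 rose, 23.1% beside 14.3% of all genes: Tnfrsf19 (2.44 ± 0.77, adjusted p = 0.0419), Ascl2 (2.32 ± 0.48, adjusted p = 0.00593) and Bambi (1.48 ± 0.26, adjusted p = 0.00245). Myc was the target called on the scaffold, at 25.9 to 31.8 CPM in M plate and 46.8 to 57.5 CPM in M scaffold (0.84 ± 0.15, adjusted p = 0.0255), beside the nuclear effector Pygo1 (0.60 ± 0.10, adjusted p = 0.0177).

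Against strips the Wnt genes were lower more often than higher in each culture. P plate had 7 higher and 15 lower of 46 (47.8% called, against 63.1% of all genes, 30.5% higher and 32.7% lower). M plate had 9 and 16 (54.3%, against 54.9%, with 26.5% and 28.4%), and M scaffold had 8 and 15 (50%, against 52.1%, with 24.5% and 27.6%). The called shares of the Wnt genes were near or below those of all genes. Median log2 fold changes were -0.46, -0.23 and -0.36, against -0.03, -0.01 and -0.02 for all genes, and the 3 comparisons share the strips libraries. Lower than strips in every culture were Fzd3, Lgr4, Lgr5, Nkd1, Sfrp5, Sp5, Wif1, Wnt7b and Znrf3, and higher in every culture were Lrp5 and Wnt4. Limma-voom did not call Wnt4 for P plate or M plate against strips. The Wnt7b calls were lost for M plate without M plate replicate 2 (adjusted p = 0.0538) and for M scaffold without M scaffold replicate 1 or 2 or any 1 strips replicate (adjusted p from 0.0511 to 0.125), and that of Lgr5 for M plate without M plate replicate 2 or strips replicate 3 (adjusted p = 0.0566 and 0.0619). Of the 46 tested genes 9 were called in no comparison by edgeR on all 12 libraries: Apcdd1, Axin2, Dkk3, Fzd8, Tcf7, Wnt2, Wnt5b, Wnt11 and Wnt16. This list and those of genes lower or higher in every culture were made for the Wnt genes alone. The matching shares of all genes are not known, so the lists describe these genes and do not set them apart.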

How the data were processed

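The authors deposited 1 table of whole-number counts per Ensembl gene, 1 column per sample. STAR 2.6.0 and the builds GRCm38 and mm10 are named per the submitters' processing notes. The sources used here do not give the counting program, annotation or strand setting, nor how the 2 technical replicates of each sample were joined. The 5 summary entries were left out. Against the gene counts plus these entries, reads without a feature were 2.57% to 4.42%, ambiguous reads 1.83% to 2.24% and reads that were not unique 38.7% to 46.7%. Symbols, lengths and coordinates came from GENCODE M21 (52403 of 52550 genes matched).

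Genes passing filterByExpr (17700) were scaled by TMM (factors 0.893 to 1.15) and tested with edgeR 4.0.16 in R 4.3.3, with a quasi-likelihood F test on all 12 libraries, the group as the only term and 8 residual degrees of freedom. Standard errors came from the F statistic. Adjusted p values are two-sided, over all genes tested in a comparison. Floors and count intervals hold only counting error, because the libraries carry no molecular identifiers and PCR copies of a molecule are counted again. The fit was tested on simulated counts for M plate against P plate. It recovered 45 of 86 changes of log2 size 1 and 100 of 114 of log2 size 2, with 11 false calls. Many changes of log2 size 1 were thus missed. Replicate numbers came from the titles. For M plate and M scaffold same-numbered libraries deviated together: their deviations from the group means correlated at 0.28 to 0.36 in 3 of 3 pairs. Those of different numbers correlated at -0.27 to -0.11 in 6 pairs. Deviations cancel within each group by construction, so these negative values follow from the positive ones and add no support. All pairs of groups were looked at, and this one stood out. The pairing is a hint from the data, and the labels name no shared litter, batch or day. The fit with the replicate number as a block within these 6 libraries has 2 residual degrees of freedom. Alternatives used DESeq2 1.42.0, limma 3.58.1 (voom), other scalings, no filter, fewer libraries and a replicate term.

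Genes given with all values were those called between media or between scaffold and plate, a set list of feedback and R-spondin genes, and the 3 largest called rises and falls against strips. The members and lists were chosen with earlier results of these data known.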

Additional observations from a re-analysis of the deposited data

How the results depend on the processing

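Of 3198 single-gene values under the alternatives, 2917 kept their side of the threshold, 162 lost the call, 119 gained one and 0 were counted as reversed. Values that were not called counted as kept even where their sign changed. Wnt2 between media, for example, went from 0.35 to -0.03 without P plate replicate 1. Upper-quartile scaling moved the median of all genes by up to -0.19 (P plate against strips). For the changes below the cause was not tested, beyond the fewer libraries that some settings use.

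For M plate against P plate, 14 Wnt genes were higher; the count was 9 with a replicate block on all 12 libraries, 9 with only the 6 compared libraries, 2 with the block within those 6, and 6 to 13 when 1 library was left out. All genes lower (1868) became 1187 without the filter, 1116 with 6 libraries, 358 with the block within 6 and 812 to 2213 with 1 library left out; all genes higher (2532) became 942 with the block within 6.

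For M scaffold against M plate, 4 Wnt genes higher became 9 with DESeq2, 2 with the block on 12 libraries, 8 with the block within 6 and 0 to 6 with 1 library left out. Wnt genes lower (0) became 1 with DESeq2, limma-voom or no filter, 2 with 6 libraries, 4 with the block within 6 and 0 to 1 with 1 left out. All genes higher (271) became 1146 with DESeq2, 459 with limma-voom, 455 with 6 libraries, 787 with the block within 6 and 7 to 225 with 1 left out. All genes lower (291) became 873, 545, 613 and 931 in the same order, 169 with the block on 12 libraries and 11 to 131 with 1 left out.

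Against strips, all genes higher in P plate (5390) became 3374 with the block within 6, and Wnt genes higher in M plate (9) became 15 with 6 libraries, with or without the block. The replicate block within the 6 M plate and M scaffold libraries, where same-numbered libraries deviated together, lost 0 of the 4 Wnt calls and gained 8. In the other pairs of groups same-numbered libraries correlated at -0.10 to 0.15, with 1 of 15 pairs over 0.1. With 3 libraries a group and no pairing in the labels, these values cannot show whether those samples were paired. Over all groups 8 of 12 libraries were closest to their own number.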
